A study of Homo sapiens with 4 samples.

Results

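The genes described here are 49 members of the DNA replication machinery, from the recognition of origins to the packaging of the copied DNA. They were chosen by name from a written list, without a threshold on their values but with earlier results of these data known. Every one of the 49 was among the 59652 genes of the deposited table. The RNA came from Huh7 and PLC cells, both established hepatocellular carcinoma cell lines labelled wild type, which were kept for 48 h in medium with 10% fetal bovine serum and either 5 mM (low) or 25 mM (high) glucose. Each line at each concentration gave 1 library, so there are 4 libraries, 2 cell lines and no replicate cultures, and no difference between libraries has a replicate check. The study used these libraries to find RNAs whose level changes with glucose.

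DNA is copied once per cell cycle, and the order of events is well known. In G1 phase the origin recognition complex, with CDC6 and CDT1, loads the ring-shaped MCM2-7 helicase onto DNA, a step called licensing. In S phase CDC45 and the GINS complex join the ring and turn it into the active CMG helicase, after which polymerases, the sliding clamp PCNA, its loaders and single-strand binding proteins copy both strands. Many of these genes are transcribed as cells enter S phase, under E2F transcription factors. Their RNA is therefore low in resting liver and high in dividing tumour cells.

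The libraries held 21376239 (Huh7, 5 mM), 30085303 (Huh7, 25 mM), 30279716 (PLC, 5 mM) and 16049686 (PLC, 25 mM) counted reads. All 8 hepatocyte markers were lower in PLC than in Huh7 cells by edgeR's quasi-likelihood test (adjusted p under 0.05), against 21.8% of all genes. TTR, a plasma carrier protein, had 4 and 0 reads in PLC cells. Albumin (ALB) was present in both lines, at 2017 and 2039 FPKM in Huh7 cells and 52.4 and 72.3 FPKM in PLC cells. FPKM is the number of reads per kilobase of gene length, scaled to the library total. Of 8 markers of leukocytes, endothelium, fibroblasts and muscle, PTPRC, CD68, VWF and DES had 5 reads or fewer in every library, while PECAM1 reached 593 reads and LUM 434 reads in Huh7 cells and COL3A1 141 reads in PLC cells.

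All 49 genes were read in all 4 libraries. Their median length was 4326 bases, against 2654 over all genes read above the minimum in Huh7 cells, and their median GC content 45.3%, against 46.2%. The fewest reads of any of them were 153 and 267 for Huh7 and 70 and 118 for PLC cells, all for POLA2, a subunit of the priming polymerase. Together they took 0.344% of the reads in the Huh7 library at 5 mM and 0.463% in that at 25 mM, against 0.180% and 0.375% for PLC cells. The median member stood at 11.8 and 17.8 FPKM in Huh7 cells and at 6.03 and 13.7 FPKM in PLC cells. The library of PLC cells at 5 mM was thus the lowest of the 4 by both measures. In RNA from a whole culture, fewer cells in S phase and less RNA per cell cannot be told apart.

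Some promoters of these genes hold the letters that E2F factors are known to bind, and a few are printed here to show how the letters lie in genes of the loading step, the helicase, the priming polymerase and the clamp, with ORC3 as the origin recognition gene that holds them. Of the 49 genes, 42 matched an entry of the RefSeq promoter table (GRCh38.p14), which gives 250 bases before and 50 bases after each start, and POLD3, MCM4, RPA2, GINS4, MCM5, DSCC1 and RPA3 had none. The E2F letters in 4 forms, TTTCCCGC, TTTGGCGC, TTTCGCGC and TTTGCCGC, were searched on both strands. They were found in 21 of the 42 genes (50%), against 3.99% of all 27305 genes of the table, 3.31% of all 35116 promoters and 6.48% of the 10404 matched genes read above the minimum in Huh7 cells. All 4 matched MCM2-7 genes and all 3 loading genes held them, but only ORC3 of the 6 matched origin recognition genes and neither CAF-1 gene did. Capitals mark the E2F letters in the following windows, each read 5′ to 3′ on the strand of its gene.

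MCM6 (chr2:135876506-135876611, minus strand): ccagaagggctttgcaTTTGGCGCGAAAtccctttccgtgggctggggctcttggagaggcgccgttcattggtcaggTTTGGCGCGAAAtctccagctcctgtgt
MCM3 (chr6:52284893-52284932, minus strand): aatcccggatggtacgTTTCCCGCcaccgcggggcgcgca
MCM7 (chr7:100101561-100101600, minus strand): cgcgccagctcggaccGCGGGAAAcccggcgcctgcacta
CDT1 (chr16:88803738-88803777, plus strand): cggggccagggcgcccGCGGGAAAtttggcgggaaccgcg
GMNN (chr6:24775317-24775356, plus strand): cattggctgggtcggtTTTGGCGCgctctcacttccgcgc
GINS2 (chr16:85688962-85689001, minus strand): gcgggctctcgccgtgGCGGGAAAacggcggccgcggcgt
POLA1 (chrX:24693765-24693804, plus strand): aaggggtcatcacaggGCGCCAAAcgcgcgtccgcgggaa
PCNA (chr20:5126658-5126697, minus strand): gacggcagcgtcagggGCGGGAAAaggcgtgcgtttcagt
ORC3 (chr6:87590107-87590134, plus strand): gcagccgcgagggcgcGCGGGAAAtccc

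The MCM6 window holds 4 matches in 2 stretches, because a match on one strand overlaps a match on the other in each stretch. CCAAT, the letters of the NF-Y box, were found in 26 of the 42 genes (61.9%), against 39.7% of all genes of the table and 34.6% of all promoters. The CHR letters TTTGAA or TTCGAA, typical of genes expressed in G2 and mitosis, were found in 1 of 42 (2.38%), against 19.5% of all genes and 16.4% of promoters. A match says only that the letters are there. The map of matches shows where the E2F letters lie in the 21 genes that hold them.

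In Huh7 cells, RNA of 48 of the 49 genes was more abundant at 25 mM than at 5 mM, mostly by a small factor. The ratio of FPKM at 25 mM to FPKM at 5 mM, with 0.1 added to both, had a median of 1.30 over the 49 genes, against 1.03 over the 21864 genes read above 0.5 FPKM in either library. The study's threshold, a ratio over 1.5, was passed by 14 of the 49, against 14.1% of all genes. No member was under 0.67, against 13.7% of all genes. The exact 95% interval of the ratio, which covers counting error only, lay above 1 for 44 of 49, against 25.0% of all genes, and below 1 for none.

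In PLC cells the same genes were higher by a larger factor. The median ratio was 2.32, against 1.08 over 21749 genes, and 39 of 49 passed 1.5, against 26.2% of all genes. None was under 0.67, against 17.0% of all genes, and the interval lay above 1 for 48 of 49, against 33.2% of all genes. ORC5, a subunit of the origin recognition complex, was the one exception, with its interval below 1. All 14 genes past the threshold in Huh7 cells were also past it in PLC cells, so 14 of 49 were past it in both. Of the 18108 genes read above the minimum in both lines, 5.30% were past it in both.

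**Figure D1:**
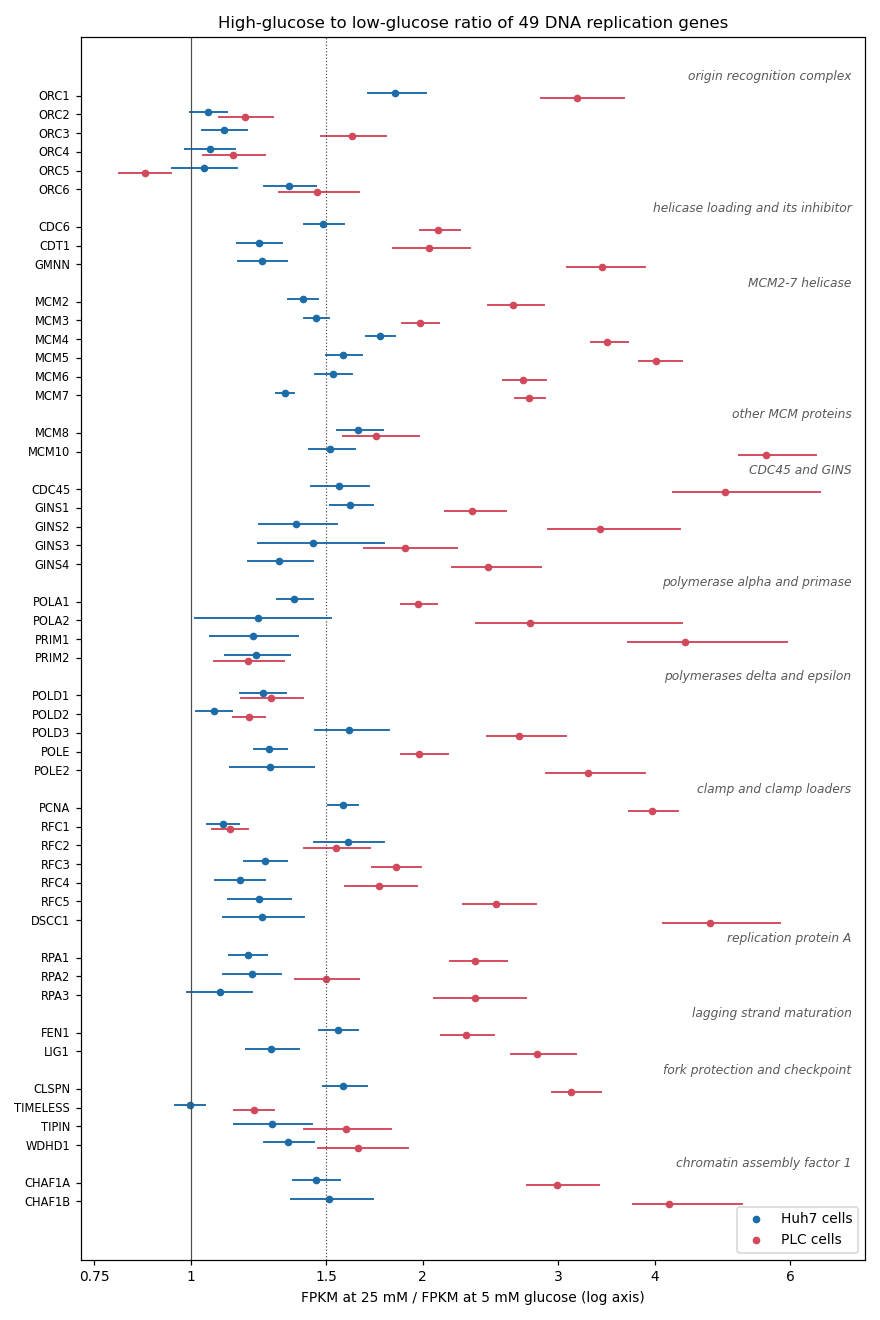
Ratio of FPKM at 25 mM to FPKM at 5 mM glucose for the 49 genes (log axis) in Huh7 cells (blue) and PLC cells (red), grouped by complex. Bars are exact 95% intervals from the counts, solid and dotted lines mark ratios of 1 and 1.5, and in 46 of 49 genes the PLC point lies to the right of the Huh7 point.

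For a change common to both lines, 23217 genes were fitted in edgeR (quasi-likelihood), blocking on cell line. None of the 49 genes had an adjusted p under 0.05, while 15 of all genes (0.0646%) were called higher. At an unadjusted p under 0.05, 34 of 49 were higher and none lower, against 4.14% of all genes that were higher. DESeq2 called 5 of the 49 higher (CLSPN, MCM4, MCM5, ORC1 and PCNA), against 0.570% of the 12448 genes to which it gave an adjusted p, and limma called none, against 0.0689% of all genes. The lowest adjusted p of edgeR was 0.0605, for MCM4, with a log2 fold change of 1.23 (SE 0.25). The fit has 1 residual degree of freedom, and its p-values treat the cell lines as repeats of one experiment.

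The origin recognition complex, which marks where replication can start, differed least between the glucose concentrations. Its 6 subunits had median log2 ratios of 0.11 (Huh7) and 0.39 (PLC), the lowest of the 12 complexes in both lines. ORC1, the subunit whose level is known to follow the cell cycle, stood apart from the other 5. ORC1 was at 10.8 and 20.03 FPKM in Huh7 cells at 5 and 25 mM and at 4.39 and 14.2 FPKM in PLC cells, ratios of 1.84 (interval 1.70 to 2.02) and 3.17 (2.85 to 3.65). Its adjusted p by edgeR was 0.0899, with a log2 fold change of 1.20 (SE 0.27). The ratio in Huh7 cells was the highest of all 49 genes.

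ORC3, whose promoter window is printed above, had ratios of 1.11 and 1.62. ORC6 had ratios of 1.34 (interval 1.24 to 1.45) and 1.46 (1.30 to 1.66), so it was higher at 25 mM in both lines. ORC2 and ORC4, core subunits, were near 1 in both lines, with ratios of 1.05 and 1.06 for Huh7 and of 1.18 and 1.14 for PLC cells. ORC5 was at 8.88 and 9.25 FPKM in Huh7 cells and at 18.0 and 15.7 FPKM in PLC cells, with ratios of 1.04 (interval 0.945 to 1.15) and 0.872 (0.806 to 0.942). It was the only member with less RNA at 25 mM in PLC cells. The FPKM of ORC1 relative to the median of ORC2 to ORC5 went from 0.840 at 5 mM to 1.48 at 25 mM in Huh7 cells, and from 0.519 to 1.20 in PLC cells. ORC1 was thus below that median at low glucose and above it at high glucose in both lines.

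Helicase loading depends on CDC6 and CDT1, and geminin (GMNN) binds CDT1 and blocks it after S phase has begun. None of the 3 passed 1.5 in Huh7 cells and all 3 did in PLC cells. CDC6 was at 14.0 and 20.8 FPKM in Huh7 cells, just under the threshold at 1.49, and at 12.9 and 27.2 FPKM in PLC cells, a ratio of 2.10. CDT1 was at 23.1 and 28.3 FPKM in Huh7 cells and 6.93 and 14.2 FPKM in PLC cells. The inhibitor GMNN was at 22.2 and 27.5 FPKM in Huh7 cells, a ratio of 1.24, and at 6.03 and 20.8 FPKM in PLC cells, a ratio of 3.42 (interval 3.08 to 3.88). Per length, GMNN and CDT1 stood at a ratio of 0.962 and 0.971 in Huh7 cells and 0.870 at 5 mM in PLC cells, but at 1.47 in PLC cells at 25 mM. GMNN exceeded CDT1 in that library alone.

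The 6 subunits of the MCM2-7 ring were all higher at 25 mM, and every interval lay above 1 in both lines. The median log2 ratio was 0.58 (Huh7) and 1.44 (PLC), with 3 and 6 of 6 past the threshold. MCM4 was at 19.9 and 35.1 FPKM in Huh7 cells and 9.24 and 32.2 FPKM in PLC cells, ratios of 1.76 (interval 1.69 to 1.84) and 3.47 (3.30 to 3.69). MCM5 had the highest ratio of the ring in PLC cells, 4.02 (3.81 to 4.34), from 6.12 to 24.9 FPKM, against 1.58 in Huh7 cells, from 12.8 to 20.3 FPKM. MCM7, the most abundant subunit, was at 90.4 and 120 FPKM in Huh7 cells and at 24.7 and 68.0 FPKM in PLC cells, ratios of 1.33 and 2.75. MCM6, with its paired E2F letters, had ratios of 1.53 and 2.70. MCM3 had ratios of 1.45 and 1.98, the latter the lowest of the ring in PLC cells.

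The proteins of the ring are needed in equal numbers, whereas the FPKM values of their RNAs were not equal. FPKM divides by the annotated gene length, so comparisons of FPKM between genes, here and elsewhere, depend on that length. In Huh7 cells at 5 mM, MCM5 (7268 bases) had 1992 reads and 12.8 FPKM, and MCM6 (4135 bases) had 1918 reads and 21.7 FPKM. MCM7 held 39.4% and 36.3% of the summed FPKM of the 6 genes in Huh7 cells at 5 and 25 mM, and 29.9% and 30.4% in PLC cells. MCM5 held 5.59% and 6.14% for Huh7 but 7.40% and 11.1% for PLC cells. The highest subunit exceeded the lowest 7.05-fold and 5.92-fold in Huh7 cells and 4.04-fold and 3.92-fold in PLC cells. The FPKM values were therefore closer to each other in PLC cells than in Huh7 cells, and in each line slightly closer at 25 mM.

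MCM10, which helps to activate the loaded helicase, had the highest ratio of all 49 genes in PLC cells. It was at 10.5 and 15.9 FPKM in Huh7 cells, a ratio of 1.52, and at 2.41 and 13.9 FPKM in PLC cells, a ratio of 5.58 (interval 5.15 to 6.48). MCM8, which acts in recombination repair, was at 7.23 and 11.98 FPKM in Huh7 cells and 2.73 and 4.81 FPKM in PLC cells, ratios of 1.65 and 1.74. The ratios of the lines were thus far apart for MCM10 and close for MCM8. By edgeR, taking both concentrations together, both genes were lower in PLC than in Huh7 cells, with log2 fold changes of -1.14 (adjusted p = 0.0215) and -1.36 (adjusted p = 0.000504). Taken apart, the log2 of PLC over Huh7 FPKM was -2.07 at 5 mM and -0.20 at 25 mM for MCM10, and -1.38 and -1.30 for MCM8.

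CDC45 and the 4 GINS subunits, which turn the ring into the CMG helicase, were higher at 25 mM in both lines. Their median log2 ratio was 0.53 (Huh7) and 1.28 (PLC), with 2 and 5 of 5 past the threshold. CDC45 was at 11.8 and 18.4 FPKM in Huh7 cells and at 1.28 and 6.70 FPKM in PLC cells, where it had 115 and 320 reads, ratios of 1.56 (interval 1.43 to 1.70) and 4.94 (4.23 to 6.55). GINS1 had the highest ratio of the group in Huh7 cells, 1.61, and a ratio of 2.32 in PLC cells, and GINS2 had ratios of 1.37 and 3.39. GINS4 had the lowest ratio of the group in Huh7 cells, 1.30, and a ratio of 2.43 in PLC cells. GINS3 was one of the rarest members, at 1.55 and 2.28 FPKM in Huh7 cells and 2.68 and 5.16 FPKM in PLC cells, and the highest GINS subunit exceeded the lowest 9.96-fold and 10.9-fold in Huh7 cells but 4.18-fold and 3.11-fold in PLC cells.

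Polymerase alpha and primase lay down the RNA-DNA primers from which synthesis starts. Of its 4 subunits, none passed 1.5 in Huh7 cells and 3 did in PLC cells. PRIM1, the catalytic primase subunit, was at 5.96 and 7.19 FPKM in Huh7 cells and at 1.17 and 5.46 FPKM in PLC cells, ratios of 1.20 (interval 1.06 to 1.38) and 4.38 (3.69 to 5.94). PRIM2, its partner, was at 5.55 and 6.76 FPKM in Huh7 cells and 5.49 and 6.53 FPKM in PLC cells, ratios of 1.22 and 1.19. The partners stood near 1 to 1 in Huh7 cells (PRIM1 over PRIM2, 1.08 and 1.06) and in PLC cells at 0.213 at 5 mM and 0.836 at 25 mM. Exons of PRIM1 share positions with those of NACA on the same strand, which had 6653, 8512, 6254 and 3029 reads in the 4 libraries in the order above, so the counts of PRIM1 are uncertain. POLA1, the catalytic subunit of the polymerase, was at 14.5 and 19.8 FPKM in Huh7 cells and 13.3 and 26.3 FPKM in PLC cells.

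The replicative polymerases were uneven. Polymerase delta, which makes the lagging strand, had members at both ends: POLD3, an accessory subunit, had ratios of 1.60 and 2.67 in Huh7 and PLC cells, while POLD2, another accessory subunit, had 1.07 and 1.19. POLD2 was also among the more abundant members, at 29.7 and 31.9 FPKM in Huh7 cells and 39.1 and 46.6 FPKM in PLC cells. Polymerase epsilon makes the leading strand, and its subunit POLE2 was at 6.21 and 7.90 FPKM in Huh7 cells and 3.19 and 10.7 FPKM in PLC cells, ratios of 1.27 and 3.28 (interval 2.89 to 3.89).

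PCNA, the clamp that holds polymerases on DNA, was the most abundant member on average. It was at 93.6 and 148 FPKM in Huh7 cells and 26.2 and 104 FPKM in PLC cells, ratios of 1.58 (interval 1.51 to 1.65) and 3.97 (3.71 to 4.28), with an adjusted p of 0.0996 by edgeR. RFC1, the large subunit of its loader, was flat by comparison, at 18.9 and 20.8 FPKM in Huh7 cells and 17.5 and 19.7 FPKM in PLC cells. PCNA thus exceeded RFC1 4.94-fold and 7.08-fold in Huh7 cells, and 1.49-fold and 5.30-fold in PLC cells. RFC2, a small subunit, had nearly the same ratio in both lines, 1.60 and 1.54. DSCC1, of the alternative loader that acts in cohesion, was at 8.11 and 10.1 FPKM in Huh7 cells and 2.46 and 11.98 FPKM in PLC cells, ratios of 1.24 and 4.72.

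Replication protein A covers single-stranded DNA, and its 3 subunits stayed under 1.5 in Huh7 cells. RPA1, the large subunit, was at 16.8 and 19.97 FPKM in Huh7 cells and 5.82 and 13.7 FPKM in PLC cells, ratios of 1.19 and 2.34. RPA3 had the same ratio of 2.34 in PLC cells. The ratio of RPA2 was smaller there, just under the threshold at 1.499 (interval 1.36 to 1.65). For Huh7 it was 1.20, the highest of the 3 subunits. FEN1, which trims flaps between Okazaki fragments, was at 34.6 and 53.9 FPKM in Huh7 cells and 17.3 and 39.6 FPKM in PLC cells, ratios of 1.55 and 2.28. Its exons share positions with FADS2 on the same strand, with 12715 and 18356 reads for Huh7 but 236 and 155 reads for PLC cells. LIG1, which seals the fragments, had ratios of 1.27 and 2.82.

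Among the fork protection genes, CLSPN and TIMELESS were far apart. Claspin (CLSPN), the adaptor of the replication checkpoint, was at 6.55 and 10.4 FPKM in Huh7 cells and 4.03 and 12.8 FPKM in PLC cells, ratios of 1.58 (interval 1.49 to 1.69) and 3.12 (2.95 to 3.41). TIMELESS, which travels with the fork, was at 27.0 FPKM at both concentrations in Huh7 cells and at 15.96 and 19.3 FPKM in PLC cells, ratios of 0.999 (0.955 to 1.04) and 1.21 (1.14 to 1.28). With GC and length trends removed, the ratio of TIMELESS in Huh7 cells changed side of 1. Chromatin assembly factor 1, which places histones H3 and H4 on the copied DNA, had the highest median of all complexes in PLC cells. CHAF1B was at 3.48 and 5.31 FPKM in Huh7 cells and 1.38 and 6.10 FPKM in PLC cells, ratios of 1.51 (1.35 to 1.73) and 4.18 (3.75 to 5.20), and CHAF1A had ratios of 1.45 and 2.99. Exons of CHAF1B share positions with MORC3 on the same strand, which had 778, 1246, 1444 and 708 reads in the 4 libraries, so its counts are uncertain too.

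**Figure D2:**
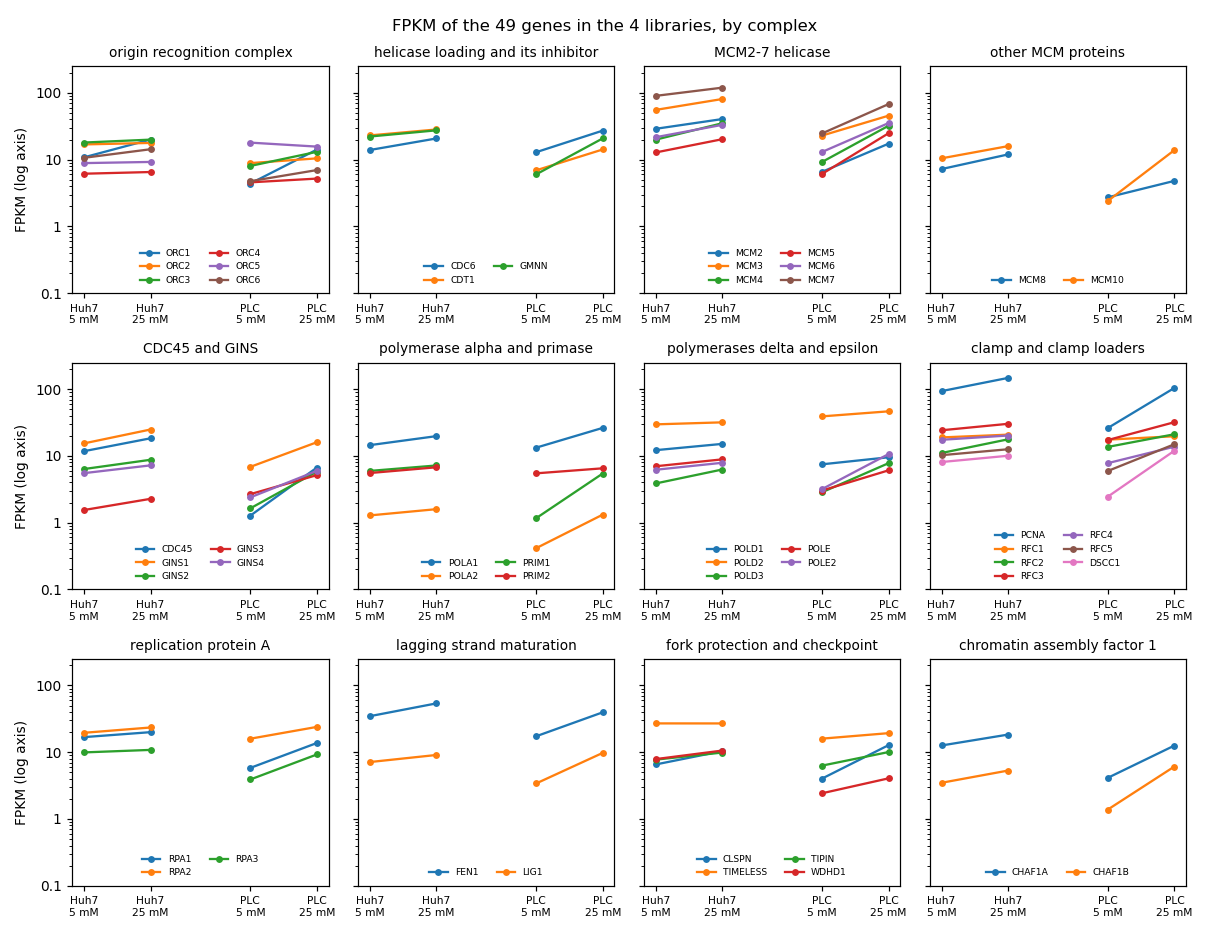
FPKM (log axis) of the 49 genes in the 4 libraries, 1 panel per complex, with lines joining 5 and 25 mM within a cell line. Most lines are steeper in PLC cells, where ORC5 is the only one to slope down.

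Ordered by their median log2 ratio, the 12 complexes ran in PLC cells from chromatin assembly factor 1 (1.82) and the other MCM proteins (1.64) over the MCM2-7 helicase (1.44) to fork protection (0.69) and the origin recognition complex (0.39). In Huh7 cells the other MCM proteins (0.66), the MCM2-7 helicase (0.58) and chromatin assembly factor 1 (0.57) came first and the origin recognition complex (0.11) last. Chromatin assembly factor 1 and the other MCM proteins hold 2 genes each, so their medians are midpoints. The other MCM proteins, MCM8 and MCM10, are a grouping made here, and in PLC cells they stood at 0.80 and 2.48. The ranges of neighbouring complexes overlapped in both lines, except those of replication protein A and of polymerase alpha with primase in Huh7 cells. Across the 49 genes, log2 ratios in the lines had a Pearson correlation of 0.559 and a Spearman correlation of 0.51, as a description over genes that share the same 4 libraries.

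**Figure D3:**
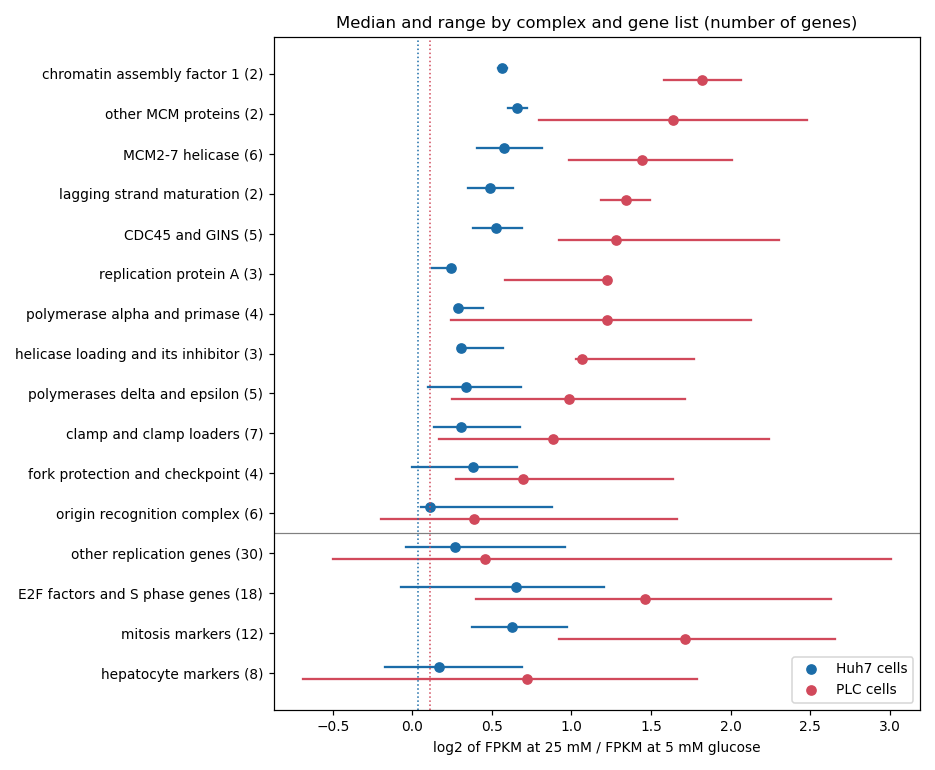
Median (point) and range (bar) of the log2 ratio of FPKM at 25 mM to FPKM at 5 mM for the 12 complexes and 4 other gene lists, with the number of genes, in Huh7 cells (blue) and PLC cells (red). Dotted lines mark the medians over all genes, 0.04 and 0.11, and the origin recognition complex lies closest to them among the complexes.

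The log2 ratio was larger in PLC than in Huh7 cells for 46 of the 49 genes, against 53.5% of the 18108 genes read in both lines, with a median difference of 0.73 on the log2 scale. The largest differences were those of DSCC1 (1.93), MCM10 (1.88), PRIM1 (1.86) and CDC45 (1.67). ORC5 (-0.25), RFC2 (-0.05) and PRIM2 (-0.04) were the exceptions. With 1 library per condition the difference between the lines could not be tested.

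The lines also differed in level, mostly at low glucose. At 5 mM, 45 of 49 genes were lower in PLC than in Huh7 cells, against 51.7% of the 18108 genes read in both lines. The median ratio of PLC to Huh7 FPKM was 0.452, against 0.968 over all those genes. At 25 mM, 31 of 49 were lower, against 49.2% of all those genes, and the median was 0.829, against 1.01. By edgeR, with the glucose concentration as a block, 24 of 49 were lower in PLC cells at an adjusted p under 0.05, against 21.8% of all genes. Another 2, ORC5 and GINS3, were higher, against 21.1% of all genes. The p-values of this test treat the libraries at 5 and 25 mM as repeats within each line. The furthest down was CDC45, with a log2 fold change of -2.30 (SE 0.37, adjusted p = 0.000253), and MCM2, the helicase subunit at the ring's entry gate, followed with -1.68 (SE 0.25, adjusted p = 0.000151).

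**Figure D4:**
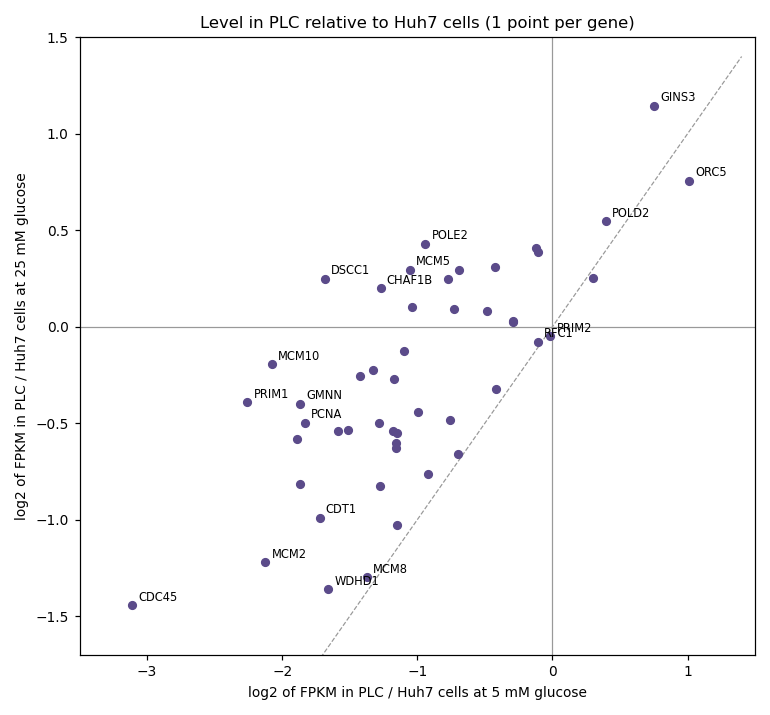
Log2 of the FPKM in PLC cells over the FPKM in Huh7 cells at 5 mM (horizontal axis) and at 25 mM glucose (vertical axis), 1 point per gene, with a dashed line where both are equal. Of the 49 points, 46 lie above the dashed line and 45 lie left of 0, with CDC45 furthest left and GINS3 and ORC5 furthest right.

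Other lists of genes give the setting. Of 30 further replication genes, 3 were past 1.5 in Huh7 cells and 11 in PLC cells, against the 14.1% and 26.2% of all genes given above, with none under 0.67 and medians of 0.27 and 0.46 on the log2 scale. Of 18 E2F factors and S phase genes, 10 and 16 were past it, with medians of 0.65 and 1.47. E2F8, a repressor of the family that is itself made in S phase, was at 4.90 and 11.4 FPKM in Huh7 cells and 0.631 and 4.27 FPKM in PLC cells, and was the 1 gene of these lists with an adjusted p under 0.05 by edgeR (0.0463, log2 fold change 1.86, SE 0.36). RRM2, which makes deoxynucleotides, had ratios of 1.73 and 6.19. E2F3 and DNMT1 were the least changed of that list, with ratios of 0.953 and 1.28 for Huh7 and of 1.39 and 1.32 for PLC cells. Of 12 mitosis markers, 7 and 12 were past the threshold, with medians of 0.63 and 1.71, and MKI67, the Ki-67 proliferation antigen, had ratios of 1.70 and 6.31. The 8 hepatocyte markers, which are no cell cycle genes, were past it in 2 and 4 cases, with medians of 0.17 and 0.72, the latter above that of the fork protection genes. Those past it in PLC cells were APOA1 (3.46), AFP (3.30), SERPINA1 (2.34) and FGB (1.97). APOA1 had only 26 and 52 reads there (interval 2.31 to 6.30). TTR was under the FPKM minimum in PLC cells and is still counted in the 8 and in their median. The replication genes and the mitosis markers were thus higher in the same libraries, and 4 hepatocyte markers were higher there in PLC cells as well. Their part, and that of the share of dividing cells, in these ratios was not tested.

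Members with E2F letters in the promoter had median log2 ratios of 0.45 (Huh7) and 1.21 (PLC), against 0.29 and 0.72 for the 21 matched members without them. The ranges overlapped widely, and CDC45 and MCM10, with ratios of 4.94 and 5.58 in PLC cells, were among those without the letters in this window. Over all matched genes the medians were 0.09 and 0.19 with the letters and 0.04 and 0.08 without.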

How the data were processed

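The authors deposited raw counts, whole numbers of reads per gene without normalization, for 4 libraries of Huh7 and PLC cells depleted of rRNA and built with a directional kit. The submitters' processing notes name HISAT2, featureCounts and hg38. The annotation release and the strand setting of the counting are not given in the sources used here. Of 59657 lines, 59652 genes were used, and the other 5 are a broken entry for ANK2. FPKM was computed from the counts, the gene lengths of the table and the library totals, so a library's total affects all its values. Ratios within a line had 0.1 added to both FPKM values and used the study's limits, which are an FPKM over 0.5 with ratios above 1.5 or below 0.67. That FPKM had to pass in at least 1 of 2 libraries was chosen here. Intervals are exact (Clopper-Pearson) 95% intervals of the counts, without the added 0.1, and cover counting error only. On the log2 scale a bound lay a median of 0.10 (Huh7) and 0.14 (PLC) from the middle of its interval.

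Shared changes and line differences were tested with edgeR 4.0.16 (filterByExpr, TMM, quasi-likelihood, Benjamini-Hochberg over all genes tested) in R 4.3.3, and DESeq2 1.42.0 and limma 3.58.1 were alternatives. The code for the ratios, intervals and calls and for the edgeR test of glucose was tested on simulated data. There are no replicate cultures, so p-values rest only on how these libraries depart from the fitted effects of line and glucose. The members and lists were chosen with earlier results of these data known. Genes named in the text are the highest and lowest of each complex in each line, the 5 highest and 5 lowest members in each line, the 3 most and least abundant, and the 2 highest and 2 lowest of each other list by mean log2 ratio. ALB, SERPINA1, FGB, LUM, PTPRC, CD68, VWF, MCM2, MCM6, GINS2, ORC3, ORC6, TIPIN, POLE4, FADS2, NACA and the other genes that share positions with members were added after their values were seen. Of the rule's genes TICRR, SSRP1, ASF1A, ASF1B, CCNB1, CCNB2, CDK1, AFP, APOA1, APOB and COL1A1 are taken up below. Exons of 23 members share positions with another gene, 9 of them on the same strand.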

Additional observations from a re-analysis of the deposited data

How the results depend on the processing

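Each condition has 1 library, so no library could be left out. With a ratio over 2 or under 0.5 in place of 1.5 and 0.67, 0 members were past the threshold in Huh7 cells and 0 in both lines, against 28 in PLC cells (all genes, 7.12% and 14.8% in the lines). With 1 added to FPKM, the median log2 ratio in PLC cells was 1.04 instead of 1.21. Without a filter on low counts edgeR called a shared change in 12 members, all higher (0.626% of all genes were) and DESeq2 called 5, instead of 0. Without the block for glucose 9 members instead of 26 differed between the lines, against 38.0% and 42.9% of all genes, so the members' share was then below that of all genes. The cause was not tested. Under the other settings 11 to 14 (Huh7) and 36 to 40 (PLC) members were past 1.5, with none under 0.67. TMM scaling moved log2 ratios by -0.04 (Huh7) and -0.12 (PLC). Of 98 ratios, 1 changed sign under any rescaling, that of TIMELESS in Huh7 cells. Depth limits POLA2 most, with 70 reads in PLC cells at 5 mM.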

Other observations

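Paralogs and partners among the further replication genes differed in PLC cells. ASF1B, a histone chaperone made in dividing cells, was at 11.2 and 21.7 FPKM in Huh7 cells and 1.67 and 14.1 FPKM in PLC cells, ratios of 1.94 and 8.04, with an adjusted p of 0.0843 by edgeR. Its paralog ASF1A was at 34.4 and 41.8 FPKM in Huh7 cells and 21.9 and 15.5 FPKM in PLC cells, ratios of 1.21 and 0.709. TICRR, which helps CDC45 to reach the helicase, had ratios of 1.83 and 3.40. SSRP1, a subunit of the histone chaperone FACT, had 1.09 and 0.738, and POLE4, a small subunit of polymerase epsilon, had 1.34 and 0.757. POLE4 had 169 and 67 reads in PLC cells, and its interval there, 0.555 to 0.998, ended just under 1. ASF1A, SSRP1 and POLE4 thus had less RNA at 25 mM in PLC cells, where 48 of the 49 members had more.

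The other listed genes named by the same rule had these ratios in Huh7 and PLC cells. Cyclin CCNB1 had 1.38 and 5.94, CCNB2 had 1.51 and 1.90, and CDK1 had 1.44 and 2.29. The plasma proteins APOA1, AFP and APOB had 1.52, 1.14 and 0.888 for Huh7 but 3.46, 3.30 and 1.05 for PLC cells. COL1A1 had at most 20 reads in a library.

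The table lists 12 pseudogenes named after 7 members. The largest share of its parent gene's reads was 3.14%, for RPA2P1, with 26 and 18 reads in Huh7 cells and 0 in PLC cells. Among genes that share positions with a member, those with at least 100 reads in some library touch 12 members, 4 of them on the same strand (PRIM1, POLD3, FEN1 and CHAF1B).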
